A study of Mus musculus with 47 samples.

Results

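The genes described here are 47 imprinted mouse genes at 20 loci, of 35856 gene symbols in the expression table. They were taken by symbol as a list of known imprinted genes outside the H19-Igf2 and Dlk1-Meg3 loci. No measured value set membership, but earlier results of these data were known when the list was chosen. By textbook knowledge 23 were assigned to the paternal allele and 20 to the maternal allele, while 4 were left as mixed or unsure. Some of the 43 assignments hold in certain tissues alone, such as that of Ube3a in neurons. Whether they hold in these cells was not measured. An imprinted gene carries a mark from the egg or the sperm, usually DNA methylation at a differentially methylated region, and is then transcribed mainly from 1 parental allele. Polycomb repressive complex 2 (PRC2), which methylates lysine 27 of histone H3, has a known part at some of these loci. In the mouse placenta it takes part in silencing the paternal copies of the Kcnq1ot1 domain, and at Sfmbt2 and Gab1 a maternal histone mark stands in for DNA methylation. The table holds 1 value per gene, so the parental alleles were not measured apart, and a higher level cannot be assigned to either allele.

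The libraries hold polyadenylated RNA of mouse embryonic stem cells (ESC) and of cultures differentiated from them into neural progenitors (NPC). The groups were SUZ12-AID, MTF2-AID, AID-JARID2 and untagged lines, each with auxin and untreated, at both stages. All lines were C57BL/6 and expressed Tir1, the plant receptor subunit that sends a degron-tagged protein to destruction when auxin is present, and untreated cells of the tagged lines carry the degron too. Auxin was 50 µM indole-3-acetic acid, given for 12 hours to ESC and for the 5 days of NPC differentiation. ESC were kept with LIF at 100 U/ml, CHIR99021 at 3 µM and PD0325901 at 1 µM. NPC were made with bFGF at 10 ng/ml for 72 hours and then with the Hedgehog agonist SAG at 500 nM for 48 hours. There were 3 biological replicates in each of 16 groups, except 2 for SUZ12-AID NPC with auxin. SUZ12 is part of the PRC2 core, while MTF2 and JARID2 are accessory subunits found in different versions of the complex. Depletion happens at the protein level and is not measured by these RNA values.

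Each library held 3.24 to 8.71 M reads (M, 1000000). Summed over 5 pluripotency markers, ESC libraries had 2945 to 3478 TPM (a level scaled by transcript length and library total), and untagged untreated NPC had 17.8 to 20.5 TPM. Those NPC had 1337 to 1479 TPM over 6 neural progenitor markers and 2607 to 2841 TPM over 5 neuronal markers, against 48.2 to 53.3 and 419 to 445 TPM in untagged untreated ESC. Tests were run on genes that reached 1 TPM in 2 or more libraries, which 45 members passed in NPC and 35 in ESC. Snrpn and Rasgrf1 passed in neither stage, with at most 1.14 and 0.179 TPM in any library. Asb4, Calcr, Kcnq1ot1, Zim1, Magel2, Airn, Slc22a3, Dcn, Peg13 and Kcnk9 passed in NPC alone. Changes below are differences of log2(TPM + 0.5) with their SE, fitted with limma, so those of genes with low TPM are understated, and called means an adjusted p (Benjamini-Hochberg) below 0.05.

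Windows upstream of the start sites are shown for 5 places where the levels described below differed between stages or lines. They were read from RefSeq promoters on GRCm38.p6, and bases in exons of protein-coding transcripts were left out (those of retained-intron transcripts were not). In 4 of them capitals mark CpG, the dinucleotide that DNA methylation uses. In Mest the capitals mark TGCCGC on either strand (GCGGCA when read on the printed strand), the methylated motif bound by the imprint-maintaining factor ZFP57.
Nnat, chr2:157559828-157560077, plus strand, upstream of the neuronatin gene, whose level changed most: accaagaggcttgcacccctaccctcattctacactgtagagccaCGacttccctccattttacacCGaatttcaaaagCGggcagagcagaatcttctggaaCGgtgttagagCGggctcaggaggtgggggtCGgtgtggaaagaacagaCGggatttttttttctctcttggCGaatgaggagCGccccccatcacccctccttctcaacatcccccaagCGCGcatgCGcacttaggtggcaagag
Ascl2, chr7:142969265-142969514, minus strand, in the Kcnq1ot1 domain and rich in CpG: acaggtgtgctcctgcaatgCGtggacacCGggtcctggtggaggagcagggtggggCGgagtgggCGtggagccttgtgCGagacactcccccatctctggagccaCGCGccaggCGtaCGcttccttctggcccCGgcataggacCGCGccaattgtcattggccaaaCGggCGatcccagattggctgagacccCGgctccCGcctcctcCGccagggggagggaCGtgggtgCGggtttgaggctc
Slc22a18, chr7:143473539-143473735, plus strand, in the same domain and without CpG: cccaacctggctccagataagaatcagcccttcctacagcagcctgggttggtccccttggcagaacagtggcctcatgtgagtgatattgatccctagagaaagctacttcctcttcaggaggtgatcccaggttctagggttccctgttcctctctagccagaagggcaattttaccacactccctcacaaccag
Mest, chr6:30737800-30738049, plus strand, with the ZFP57 motif: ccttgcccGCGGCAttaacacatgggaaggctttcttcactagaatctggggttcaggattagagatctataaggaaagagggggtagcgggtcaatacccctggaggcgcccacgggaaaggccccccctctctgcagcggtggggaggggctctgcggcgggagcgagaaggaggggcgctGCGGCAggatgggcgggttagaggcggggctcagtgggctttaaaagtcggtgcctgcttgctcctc
Between Peg3 and Usp29, chr7:6730422-6730582, plus strand, between divergent starts of a domain whose 3 tested genes were higher with auxin in SUZ12-AID NPC: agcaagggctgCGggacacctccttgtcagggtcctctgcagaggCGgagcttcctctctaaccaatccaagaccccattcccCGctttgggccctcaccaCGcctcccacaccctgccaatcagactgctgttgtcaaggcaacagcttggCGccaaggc

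The 5 windows differ in CpG content. Nnat has 12 CpG in 250 bases, Ascl2 19 in 250, Mest 14 in 250 and the stretch between Peg3 and Usp29 has 5 in 161. Slc22a18 has 0 CpG in 197 bases, while Ascl2 of the same domain has the most of the 5. Of the members, 39 had a RefSeq window, 58 windows in all, with a median of 14 CpG per window against 6 over all 32851 windows. TGCCGC on either strand was present in 10 of the 58 member windows (17.2%), which belong to 9 members, and in 8.7% of all windows. The members are Calcr, Casd1, Copg2, Mcts2, Mest, Osbpl5, Plagl1, Zdbf2 and Zim1. A match is a run of letters and no measured binding.

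Most members were more abundant in NPC than in ESC. In the untagged untreated line, 37 of the 45 tested members were higher in NPC and 6 were lower, where 76.1% of all 17760 genes tested were called (47.6% higher, 28.5% lower). Of these members 10 passed the filter in NPC alone, and the 35 that passed at both stages had 28 higher (80%) and 6 lower (17.1%), against 47.5% and 30.9% of the 13916 genes that did so. The median change of the 45 members was 1.33 on the log2 scale, against 0.28 over all genes. For those that passed at both stages the medians were 1.11 for members and 0.22 for all genes. With the 4 genes that had 0 reads in ESC set at their bounds, the median of the 45 members was 1.39. Scaling by median of ratios moved the median of all genes to 0 and gave 37 members higher and 7 lower. Paternally expressed members had a median of 2.25 (17 of 21 higher, 3 lower) and maternally expressed ones of 1.00 (16 of 20 higher, 3 lower), and the difference between these lists was not tested. Both lists hold members that passed in NPC alone, and both follow textbook assignments that may not hold in these cells. Neural progenitor and neuronal markers moved with the stage as given above, and their part in the result was not tested. In bulk RNA fewer cells of a type and less RNA per cell cannot be told apart.

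**Figure D1:**
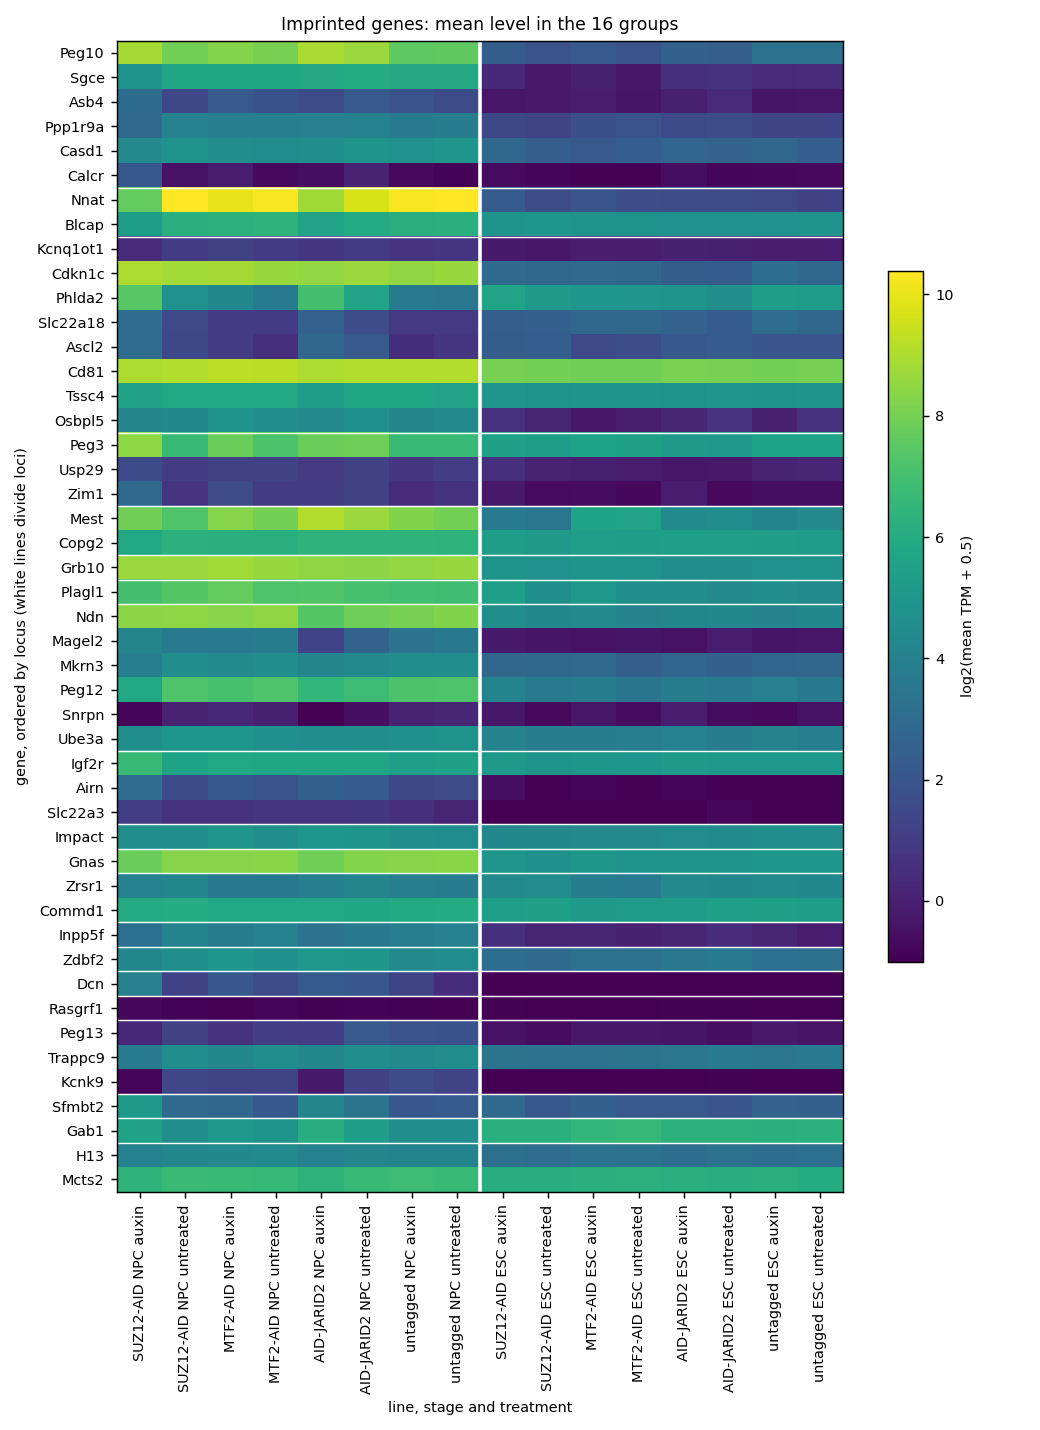
Heat map of log2(mean TPM + 0.5) for 47 imprinted genes, ordered by locus (rows), in 16 groups (columns, NPC groups left of ESC groups, auxin left of untreated in each line), with high levels in yellow and low ones in dark violet. Most genes are nearer yellow in NPC than in ESC, while Gab1, Phlda2, Slc22a18 and Ascl2 are higher in untagged untreated ESC than in NPC.

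By level, Nnat stood first in untagged untreated NPC at 1339 ± 12.4 TPM (SD, n = 3), followed by the tetraspanin gene Cd81 at 541 ± 15.1 TPM. The cell-cycle inhibitor gene Cdkn1c at 396 ± 19 TPM and the growth-limiting adaptor gene Grb10 at 394 ± 2.77 TPM overlapped. Gnas, the stimulatory G-protein alpha subunit gene, followed at 333 ± 16.1 TPM and Ndn, a neuronal MAGE family gene, at 304 ± 4.73 TPM. In untagged untreated ESC the order differed. Cd81 led at 265 ± 5.53 TPM, then came Gab1, a signalling adaptor gene, at 76.5 ± 1.58 TPM and the retrogene Mcts2 at 65.8 ± 7.84 TPM. There 15 members averaged under 1 TPM, against 5 in NPC.

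Of all members, Nnat, an endoplasmic reticulum membrane proteolipid gene of the developing brain (chromosome 2, 157560078 to 157562522), differed most between stages. It had 1347, 1325 and 1346 TPM in NPC, against 1.83, 2.26 and 1.37 TPM in ESC, a log2 change of 9.19 ± 0.27 (adjusted p = 1.26e-25). Blcap, in whose span Nnat lies on the other strand, had 76.3, 77.6 and 70.2 TPM in NPC, against 28.4, 28.1 and 28.1 TPM in ESC (1.39 ± 0.09, adjusted p = 7.82e-17). Neither pair of groups overlapped. Cdkn1c (chromosome 7, 143458339 to 143461050) had 386, 418 and 384 TPM in NPC, against 6.43, 5.88 and 7.33 TPM in ESC (5.82 ± 0.13, adjusted p = 1.81e-30).

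The adjoining genes Sgce and Peg10, which share a start region on chromosome 6 (4674350 to 4760517 together), were both higher in NPC. Sgce, which encodes epsilon-sarcoglycan, had 55.5, 58.3 and 60.2 TPM in NPC, against 0.505, 1.44 and 0.659 TPM in ESC (5.48 ± 0.30, adjusted p = 1.05e-18). Peg10, a retrotransposon-derived gene needed in the placenta, had 218, 189 and 177 TPM in NPC, against 8.36, 9.87 and 8.55 TPM in ESC (4.37 ± 0.10, adjusted p = 1.66e-30). At this locus 5 of 6 tested genes were called higher in NPC, among them Asb4, which passed the filter in NPC alone. The exception was the calcitonin receptor gene Calcr, with 0, 0 and 0.0989 TPM in NPC, against 0.108, 0 and 0.212 TPM in ESC (adjusted p = 0.522).

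In the Prader-Willi/Angelman region, all 5 tested genes were called higher in NPC, of which Magel2 passed the filter in NPC alone. Ndn had 303, 309 and 300 TPM in NPC, against 19.7, 20.4 and 18.3 TPM in ESC (3.93 ± 0.10, adjusted p = 4.58e-29). Magel2, another MAGE gene of this region, had 12.9, 12.4 and 9.9 TPM in NPC, against 0.368, 0.435 and 0.0899 TPM in ESC. Since it passed the filter through NPC libraries alone, no test is given for it. All NPC libraries lay above all ESC libraries for Ndn and Magel2. Grb10 had 391, 396 and 395 TPM in NPC, against 28.8, 27.3 and 25.5 TPM in ESC (3.83 ± 0.07, adjusted p = 2.21e-34). The phosphatase gene Inpp5f had 16, 15.3 and 17.1 TPM in NPC, against 0.593, 0.14 and 0.507 TPM in ESC (4.22 ± 0.17, adjusted p = 8.88e-23).

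Airn, Slc22a3, Dcn and Kcnk9 had 0 reads in untagged untreated ESC. Against a floor of 3 reads over the group, the level in NPC was at least 33.7-fold higher for the potassium channel gene Kcnk9 (133 reads in NPC) and at least 11.7-fold for Airn (46 reads), the non-coding RNA that silences Igf2r in cis. The bounds were at least 4.82-fold for the cation transporter gene Slc22a3 (19 reads) and at least 4.06-fold for the decorin gene Dcn (16 reads). These bounds cover counting error only. They show how little of these RNAs was read at this depth.

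The 6 members that were lower in NPC include 3 of the Kcnq1ot1 domain and both genes with the histone-based imprint. Phlda2, which limits placental growth (chromosome 7, 143501545 to 143503150), had 11, 12.1 and 11.2 TPM in NPC, against 31.2, 40.4 and 40.5 TPM in ESC (-1.66 ± 0.12, adjusted p = 5.54e-15). Slc22a18, a transporter gene, fell by 1.88 ± 0.27 (adjusted p = 7.9e-08) and Ascl2, a trophoblast transcription factor gene, by 1.20 ± 0.24 (adjusted p = 2.41e-05). Gab1 had 24.2, 23.4 and 23.2 TPM in NPC, against 78.3, 75.8 and 75.4 TPM in ESC (-1.68 ± 0.05, adjusted p = 8.74e-27). The change was smaller for Sfmbt2, a Polycomb-related gene of the trophoblast lineage (-0.31 ± 0.10, adjusted p = 0.00504), and for the retrogene Zrsr1 (-0.54 ± 0.09, adjusted p = 2.39e-06). Impact, an inhibitor of a stress kinase, was not called, with 24.4, 20.6 and 22.9 TPM in NPC, against 24.8, 22.4 and 24.1 TPM in ESC (adjusted p = 0.3).

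**Figure D2:**
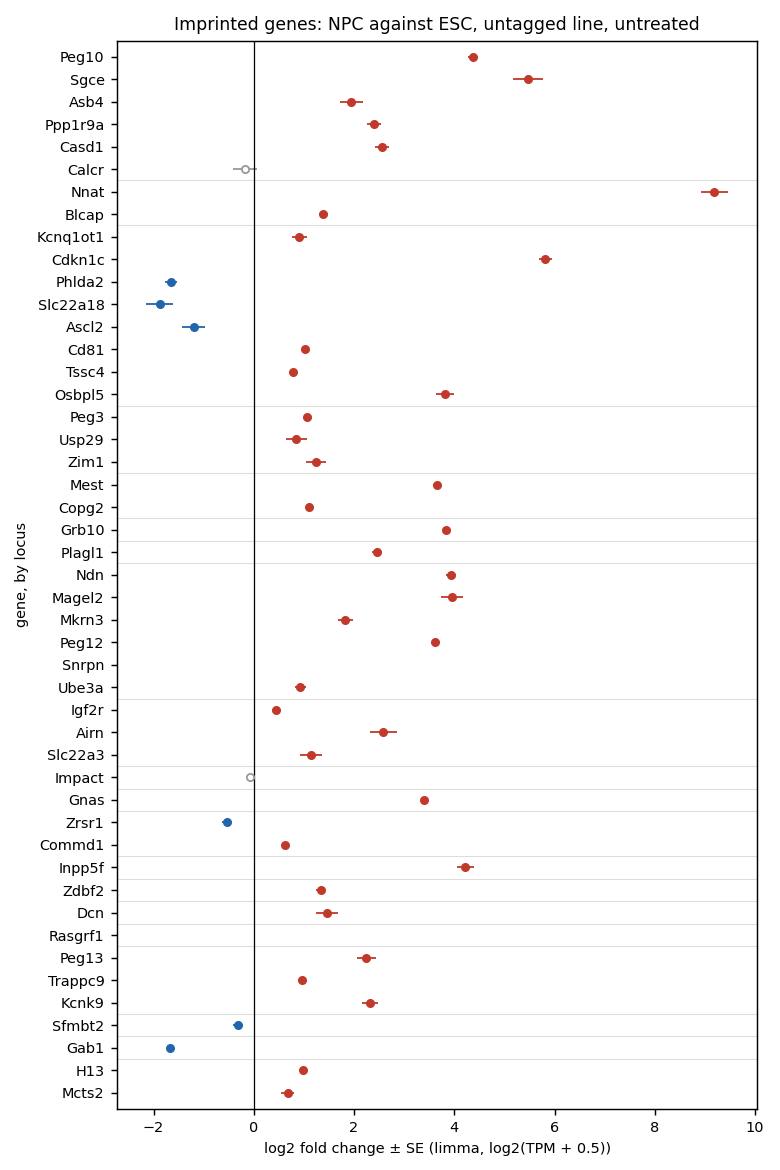
Log2 fold change of untagged untreated NPC over ESC (x axis, ± SE from limma) for 45 tested imprinted genes (y axis). Filled red points were called higher, filled blue points lower and open points were not called; 37 are red, 6 blue and 2 open, with Nnat at 9.19 and Slc22a18 at -1.88 as the ends.

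Auxin in SUZ12-AID NPC changed most members, and in both directions. Of 45 tested, 17 were higher and 19 lower with auxin, where 56.9% of all 16469 genes tested were called (23.9% higher, 33% lower). The median member change was -0.08, against -0.10 over all genes. Scaling by median of ratios shifted the median of all genes by 0.12 and gave 18 members higher and 15 lower. Of 21 paternally expressed members 8 were higher and 10 lower, and of 20 maternally expressed members 9 were higher and 6 lower. Calcr, among the 17, entered the test only through the 2 auxin libraries, the only NPC libraries in which it reached 1 TPM. Of the 37 members that were higher in NPC than ESC of the untagged line, 11 were higher (29.7%) and 19 lower (51.4%) with auxin, against 8.26% and 57.1% of all genes higher in NPC. Of the 6 members lower in NPC, 5 were higher and 0 lower, against 59.7% and 4.82% of all genes lower in NPC.

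The cultures also differed in their cell type markers. With auxin, SUZ12-AID NPC had 533 to 545 TPM over the 5 pluripotency markers, against 11 to 16.2 TPM untreated, with no marker at 0. Over the 6 neural progenitor markers they had 175 to 186 TPM with auxin, against 1442 to 1576 TPM untreated, and over the 5 neuronal markers 251 to 285 TPM with auxin, against 2535 to 2640 TPM untreated. Trophoblast markers summed to 129 to 136 TPM with auxin (4 of 5 genes averaged 1 TPM or more), against 26.1 to 34.1 TPM untreated (3 of 5). In untreated ESC of this line the same markers summed to 113 to 119 TPM, so their level does not mark trophoblast cells alone. Mesoderm and fibroblast markers summed to 183 to 185 TPM with auxin (Mesp1 at 0), against 54.6 to 57.4 TPM untreated, and endoderm markers to 94.1 to 95.4 TPM with auxin, against 160 to 167 TPM untreated (Afp at 0). The part of these cell types in the gene changes below was not tested.

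In the Kcnq1ot1 domain, 4 of 8 tested genes were higher and 2 lower with auxin. Kcnq1ot1 is the paternally expressed non-coding RNA of the domain, and its protein-coding neighbours are expressed from the maternal allele. Phlda2 had 178 and 170 TPM with auxin, against 28.4, 27.3 and 24.3 TPM untreated (2.69 ± 0.14, adjusted p = 9.27e-13). Slc22a18 had 7.86 and 7.71 TPM with auxin, against 2.82, 2.81 and 1.36 TPM untreated (1.60 ± 0.32, adjusted p = 0.000236). Both auxin libraries lay above all 3 untreated ones for each gene. Ascl2, whose CpG-rich window is printed above, had 7.5 and 8.21 TPM with auxin, against 2.5, 2.11 and 2.25 TPM untreated (1.58 ± 0.23, adjusted p = 4.12e-06).

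The other genes of this domain moved little or the other way. Cdkn1c had 513 and 502 TPM with auxin, against 441, 467 and 437 TPM untreated, a small rise (0.18 ± 0.06, adjusted p = 0.0187). Kcnq1ot1 itself fell, with 0.799 and 0.855 TPM with auxin, against 1.63, 1.53 and 1.29 TPM untreated (-0.58 ± 0.20, adjusted p = 0.0181). Tssc4 fell by 0.23 ± 0.08 (adjusted p = 0.0156), while Cd81 (adjusted p = 0.184) and the lipid transfer gene Osbpl5 (adjusted p = 0.306) were not called. Calls of Cdkn1c, Kcnq1ot1 and Tssc4 rested on single libraries. Cdkn1c was lost without untreated replicate 1 or 3 or either auxin replicate (adjusted p of 0.0519 to 0.105). Kcnq1ot1 was lost without untreated replicate 1 or either auxin replicate (0.0575 to 0.101), and Tssc4 without untreated replicate 2 or auxin replicate 2 (0.0583 and 0.0956).

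**Figure D3:**
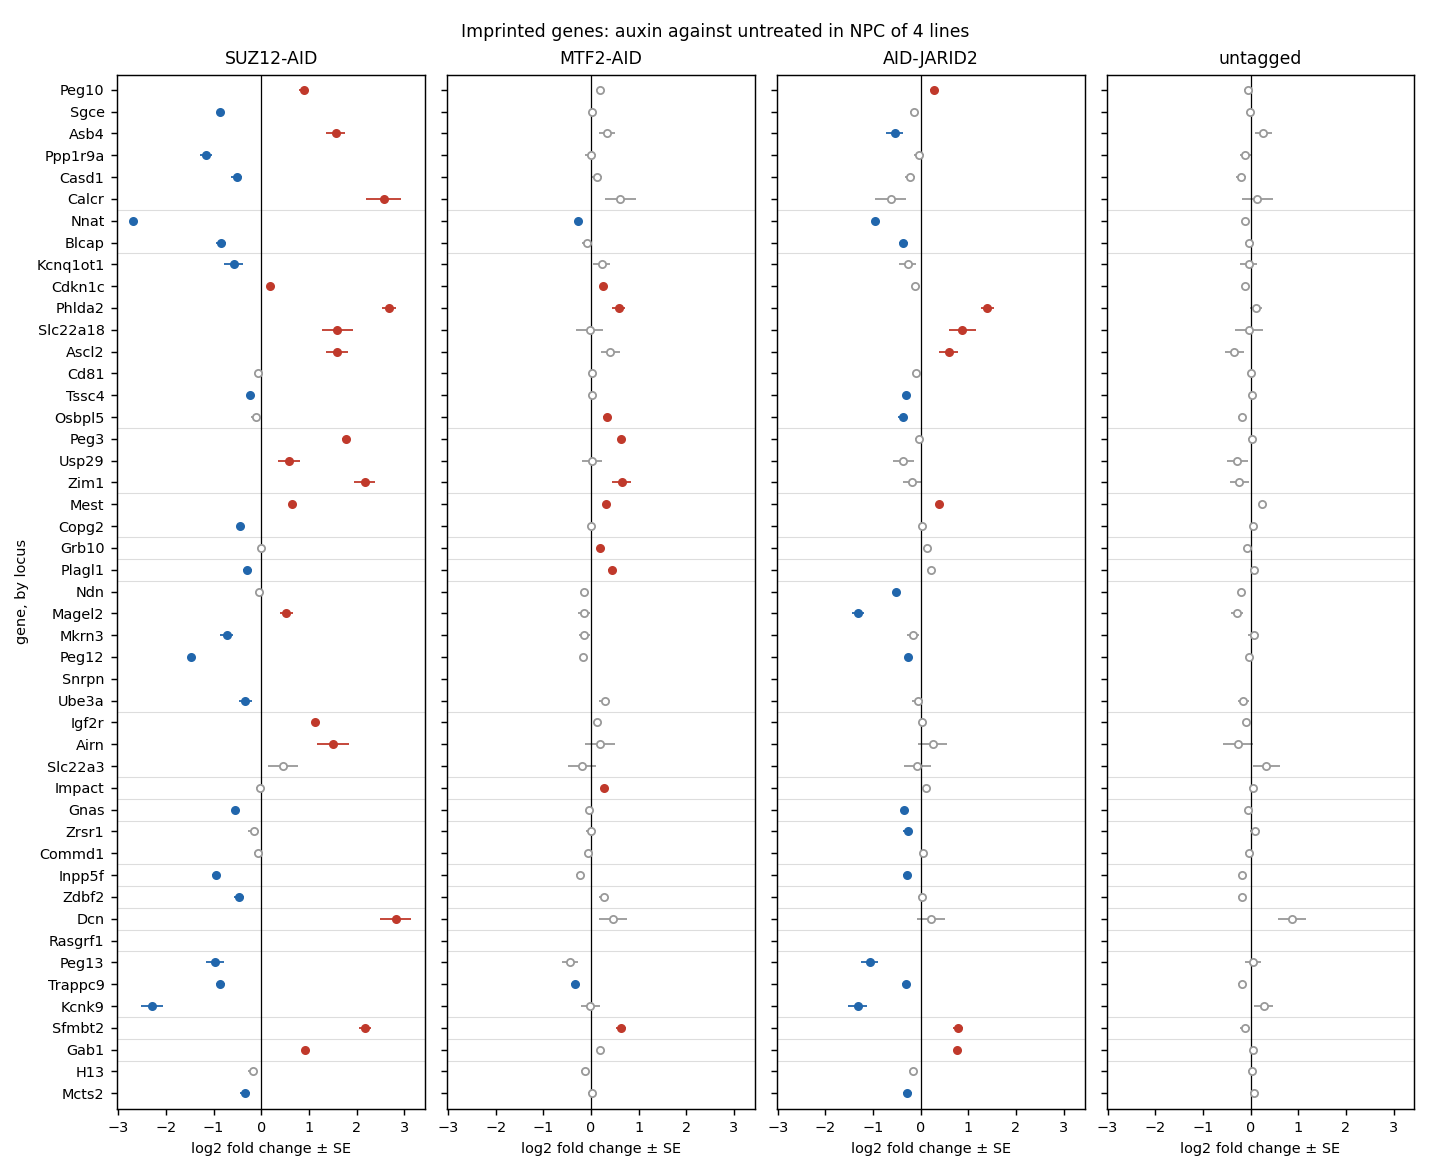
Log2 fold change of auxin over untreated NPC (x axis, ± SE from limma) for 45 imprinted genes ordered by locus (y axis), in 4 panels for the SUZ12-AID, MTF2-AID, AID-JARID2 and untagged lines. Filled points were called (red higher, blue lower); 36 are filled in SUZ12-AID, 12 in MTF2-AID, 22 in AID-JARID2 and 0 in the untagged line.

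All 3 tested genes of the Peg3 domain were higher with auxin. Peg3, a zinc finger gene expressed from the paternal allele (chromosome 7, 6703892 to 6730431), had 367 and 339 TPM with auxin, against 107, 105 and 95.7 TPM untreated (1.78 ± 0.09, adjusted p = 1.69e-13). Its maternally expressed neighbour Zim1, also a zinc finger gene, had 6.75 and 7.45 TPM with auxin, against 1.14, 1.25 and 1.18 TPM untreated (2.17 ± 0.22, adjusted p = 3.24e-08). No library of either group overlapped the other for these genes, which are expressed from opposite alleles. Usp29, which starts beside Peg3 on the other strand, had 2.32 and 2.62 TPM with auxin, against 1.76, 1.23 and 1.49 TPM untreated (0.58 ± 0.24, adjusted p = 0.0447). That call was lost without untreated replicate 2 (adjusted p = 0.135) or 3 (0.0764), or without auxin replicate 1 (0.0981) or 2 (0.201). Its exons share 2582 bases with Zim3 on the other strand, and no source used here states whether strand was used in counting.

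Igf2r and Airn, which lie on opposite strands of chromosome 17 and are expressed from opposite alleles, were both higher. Igf2r, the receptor that clears IGF2, had 111 and 102 TPM with auxin, against 48.7, 48.3 and 47 TPM untreated (1.14 ± 0.07, adjusted p = 1.59e-11). Airn had 8 and 7.69 TPM with auxin, against 2.63, 2.13 and 2.57 TPM untreated (1.51 ± 0.34, adjusted p = 0.000806). The auxin libraries lay above the untreated ones in both cases. Slc22a3 at this locus was not called, with 1.78 and 1.57 TPM with auxin, against 1.26, 1 and 1 TPM untreated (adjusted p = 0.237).

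Single-gene loci held further rises. Sfmbt2 (chromosome 2, 10370510 to 10595253) had 35.4 and 34.2 TPM with auxin, against 7.29, 7.63 and 7.02 TPM untreated (2.18 ± 0.12, adjusted p = 1.53e-12). Gab1 had 46.2 and 45.9 TPM with auxin, against 23.9, 23.7 and 24.4 TPM untreated (0.92 ± 0.07, adjusted p = 3.49e-10). On the scale of log2(TPM + 0.5), the largest rise among the members was in Dcn, a secreted proteoglycan gene of connective tissue, with 15.6 and 15 TPM with auxin, against 1.29, 1.48 and 2.67 TPM untreated (2.82 ± 0.33, adjusted p = 2.02e-07). All auxin libraries were above all untreated ones for these 3 genes.

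At the Peg10-Sgce locus Peg10 and Asb4 were higher and 3 genes lower, with Calcr set apart. Peg10 had 473 and 436 TPM with auxin, against 261, 249 and 227 TPM untreated (0.89 ± 0.09, adjusted p = 3.14e-08). Sgce, with which it shares a start region, went the other way with 28.2 and 28.6 TPM with auxin, against 47.2, 59 and 50.2 TPM untreated (-0.86 ± 0.08, adjusted p = 6.86e-09). The groups overlapped for neither gene. Calcr had 4.64 and 3.24 TPM with auxin, against 0.257, 0.197 and 0.266 TPM untreated, and since it passed the filter through those auxin libraries alone, no test is given for it. Asb4, a substrate adaptor of ubiquitin ligases, had 7.16 and 8.16 TPM with auxin, against 2.91, 2.2 and 1.79 TPM untreated (1.56 ± 0.19, adjusted p = 6.39e-07). The neurabin gene Ppp1r9a fell by 1.16 ± 0.12 (adjusted p = 7.1e-08) and Casd1, an acetyltransferase gene of sialic acids, by 0.52 ± 0.12 (adjusted p = 0.00088). Of the 10 loci with 2 or more tested genes, 4 held calls in both directions, 5 in a single direction and 1, Zrsr1-Commd1, held none. The same count was not made for neighbouring genes outside the list.

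Among the falls, Nnat was the largest in TPM, with 196 and 210 TPM with auxin, against 1345, 1278 and 1284 TPM untreated (-2.68 ± 0.05, adjusted p = 2.6e-20). Blcap had 38.9 and 44.4 TPM with auxin, against 79.6, 75.5 and 71.2 TPM untreated (-0.85 ± 0.11, adjusted p = 6.48e-07). Both genes of the pair thus fell, and neither had overlapping groups. At the Peg13-Kcnk9 locus all 3 genes fell. Kcnk9 had 0.0525 and 0.0461 TPM with auxin, against 2.09, 2.4 and 2.08 TPM untreated (-2.29 ± 0.23, adjusted p = 2.22e-08). That is 2 reads with auxin against 145 untreated, a depth-adjusted ratio of 0.0249 with an exact 95% interval of 0.00299 to 0.0916 for counting error only. Peg13, a non-coding RNA in an intron of Trappc9, had 0.882 and 0.542 TPM with auxin, against 1.58, 1.98 and 2.01 TPM untreated (-0.97 ± 0.19, adjusted p = 0.000231). The trafficking subunit gene Trappc9 had 12.3 and 12.7 TPM with auxin, against 22.7, 23.7 and 22.8 TPM untreated (-0.86 ± 0.09, adjusted p = 5.54e-08).

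The Prader-Willi/Angelman region did not move as a block. Peg12 fell, with 52.2 and 55.8 TPM with auxin, against 156, 150 and 146 TPM untreated (-1.47 ± 0.07, adjusted p = 5.29e-14), and the zinc finger gene Mkrn3 fell by 0.72 ± 0.13 (adjusted p = 8.27e-05). Magel2 rose, with 17.3 and 18.4 TPM with auxin, against 14, 11.6 and 11.4 TPM untreated (0.52 ± 0.14, adjusted p = 0.00284). Ndn was not called, with 337 and 335 TPM with auxin, against 343, 351 and 348 TPM untreated (adjusted p = 0.541). Ube3a, a ubiquitin ligase gene imprinted in neurons, fell by 0.33 ± 0.13 (adjusted p = 0.036), a call lost without untreated replicate 1 or 2 or either auxin replicate (adjusted p of 0.0555 to 0.213). Snrpn had too few reads for a test and shares 216 exon bases with Snurf on the same strand, so its reads may be split.

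Mest, a hydrolase-family gene, rose by 0.65 ± 0.06 (adjusted p = 5.43e-09), with 239 and 238 TPM with auxin, against 155, 147 and 153 TPM untreated. Its antisense neighbour Copg2 fell by 0.44 ± 0.08 (adjusted p = 5.75e-05); the genes share 912 exon bases on opposite strands. Gnas fell by 0.55 ± 0.05 (adjusted p = 8.99e-09), Inpp5f by 0.95 ± 0.09 (adjusted p = 9.76e-09) and Zdbf2 by 0.47 ± 0.10 (adjusted p = 0.000394). Plagl1, a zinc finger transcription factor gene, fell by 0.29 ± 0.09 (adjusted p = 0.00934), and Mcts2, a retrogene in H13, by 0.34 ± 0.10 (adjusted p = 0.00675). Both calls were lost with median-of-ratios scaling (adjusted p = 0.0902 for Plagl1 and 0.123 for Mcts2), as were those of Tssc4 (0.372) and Ube3a (0.179), and Plagl1 was also lost without auxin replicate 1 (0.0637). Of the 36 calls, 29 were lost under no alternative that tested them. They include Calcr, which fell below the filter when either auxin library was left out, so its call was not tested there. Grb10 was not called, with 408 and 404 TPM with auxin, against 409, 406 and 405 TPM untreated (adjusted p = 1). Impact, Zrsr1, Commd1 and the signal peptide peptidase gene H13 were not called either. Mcts2 and Zrsr1 derive from Mcts1 and Zrsr2 by retroposition, so reads may be shared with those genes and the values of both are uncertain.

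**Figure D4:**
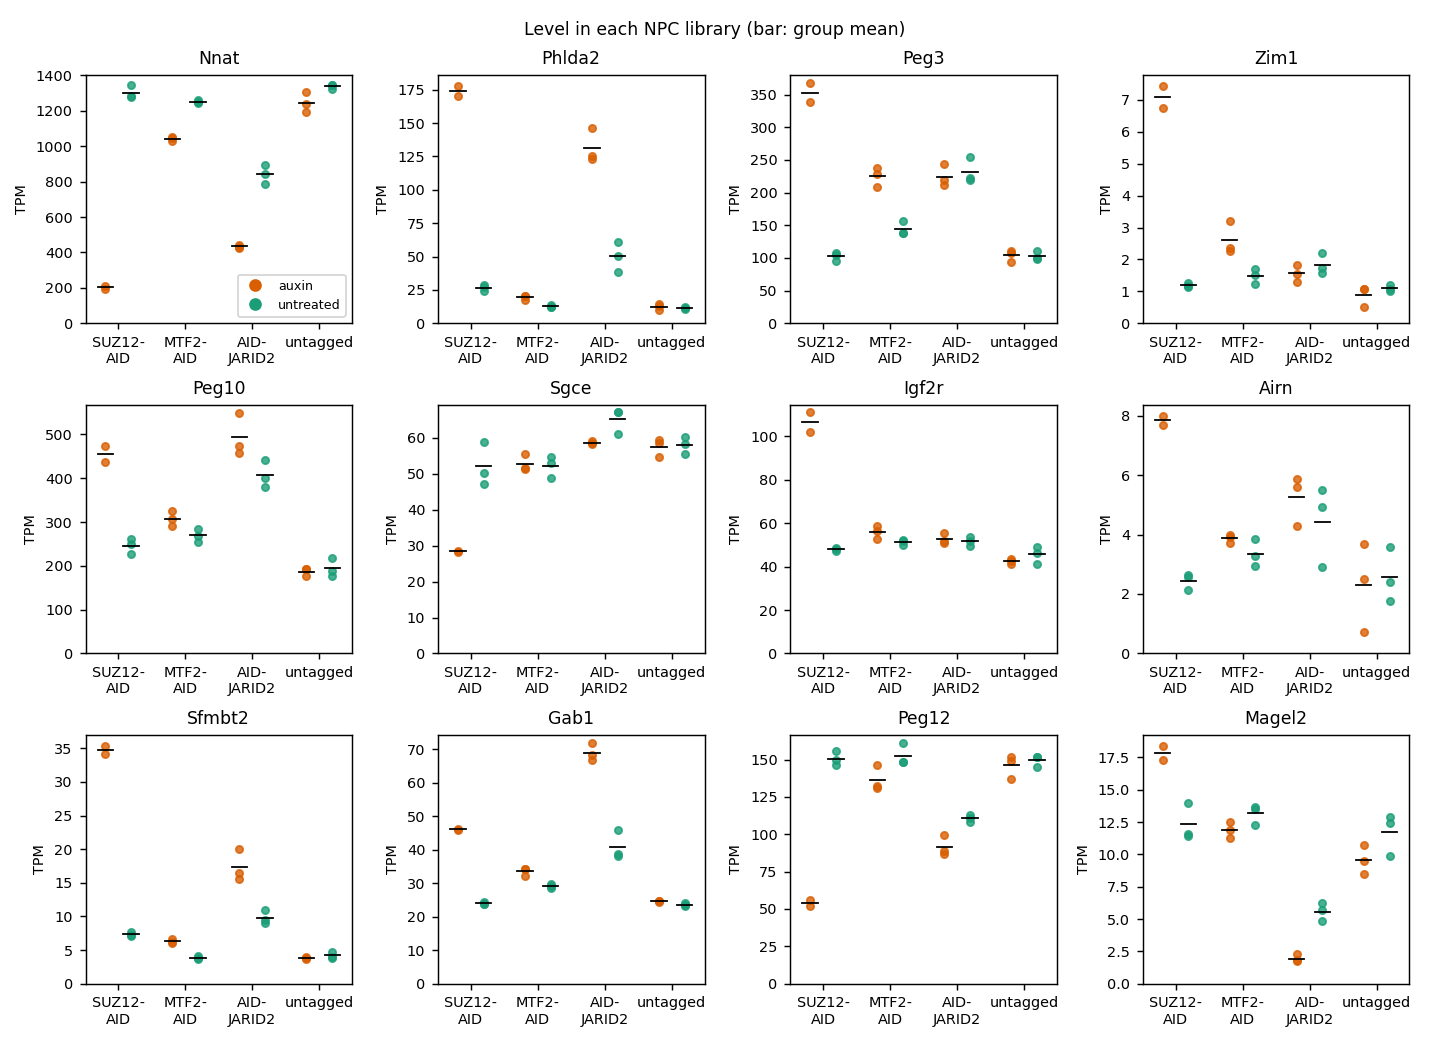
TPM of 12 imprinted genes in each NPC library (y axis, linear, a panel per gene) for the SUZ12-AID, MTF2-AID, AID-JARID2 and untagged lines (x axis), with auxin in orange left of untreated in green; bars mark group means. Nnat is at 196 and 210 TPM in SUZ12-AID with auxin and at 1047, 1028 and 1050 TPM in MTF2-AID with auxin, while Phlda2 is at 178 and 170 TPM and 20.5, 20.4 and 17.7 TPM there.

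In AID-JARID2 NPC, auxin changed 22 members, 7 higher and 15 lower, where 25% of all genes tested were called (9.28% higher, 15.7% lower). Markers moved here too. Pluripotency markers summed to 159 to 176 TPM with auxin, against 48.5 to 63.1 TPM untreated, neuronal markers to 493 to 563 TPM with auxin, against 1450 to 1709 TPM untreated, and trophoblast markers to 55.7 to 68 TPM with auxin, against 28.4 to 39.8 TPM untreated. Neural progenitor markers summed to 510 to 568 TPM with auxin, against 802 to 1011 TPM untreated, endoderm markers to 157 to 162 TPM with auxin, against 214 to 228 TPM untreated, and mesoderm and fibroblast markers to 40.9 to 50.4 TPM with auxin, against 53.4 to 64.6 TPM untreated. Untreated ESC of this line had 101 to 108 TPM over the trophoblast markers. The part of all these markers in the result was not tested. Phlda2 had 146, 125 and 123 TPM with auxin, against 50.7, 61.1 and 38.7 TPM untreated (1.40 ± 0.13, adjusted p = 4.07e-08). Kcnk9 had 0.289, 0.451 and 0.45 TPM with auxin, against 1.35, 2.3 and 1.66 TPM untreated (-1.33 ± 0.20, adjusted p = 4.19e-05). The groups overlapped for neither gene.

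Magel2 was lower in this line, with 2.26, 1.86 and 1.72 TPM with auxin, against 6.21, 5.71 and 4.81 TPM untreated (-1.31 ± 0.12, adjusted p = 6.18e-08). Its neighbour Ndn had 169, 163 and 162 TPM with auxin, against 217, 231 and 264 TPM untreated (-0.52 ± 0.05, adjusted p = 2.77e-07), and Peg12 fell by 0.28 ± 0.06 (adjusted p = 0.00135). So 3 of the 5 tested genes of the Prader-Willi/Angelman region fell and 0 rose. Peg13 had 1.46, 1.51 and 1.89 TPM with auxin, against 3.41, 3.87 and 4.65 TPM untreated (-1.08 ± 0.17, adjusted p = 7.77e-05), and Trappc9 fell by 0.32 ± 0.08 (adjusted p = 0.00547). Nnat had 433, 424 and 444 TPM with auxin, against 895, 788 and 841 TPM untreated (-0.95 ± 0.04, adjusted p = 1.01e-12).

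Among the other rises, Sfmbt2 had 20, 15.6 and 16.5 TPM with auxin, against 9.53, 11 and 8.97 TPM untreated (0.79 ± 0.11, adjusted p = 9.57e-06). Gab1 had 71.8, 66.8 and 68.1 TPM with auxin, against 38.7, 45.8 and 38.2 TPM untreated (0.75 ± 0.06, adjusted p = 1.13e-08). Mest rose by 0.39 ± 0.05 (adjusted p = 9.84e-06), and no auxin library of these 3 genes was below an untreated one. Peg3 was not called, with 243, 211 and 219 TPM with auxin, against 219, 254 and 222 TPM untreated (adjusted p = 0.707). Igf2r was not called either, with 55.6, 50.8 and 51.8 TPM with auxin, against 49.4, 53.8 and 51.8 TPM untreated (adjusted p = 0.794).

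Of the 22 calls in AID-JARID2 NPC, 14 were kept under every alternative. Ascl2 (0.58 ± 0.20, adjusted p = 0.0386) was lost without any 1 of the 3 untreated replicates or auxin replicate 1 or 2 (adjusted p of 0.0532 to 0.143). Slc22a18 (0.87 ± 0.29, adjusted p = 0.0304) was lost without any untreated replicate or auxin replicate 1 or 3 (0.0635 to 0.115). Peg10 (0.28 ± 0.08, adjusted p = 0.0149) was lost without untreated replicate 3 (0.0739) or auxin replicate 1 (0.0983). Asb4 (-0.55 ± 0.17, adjusted p = 0.0246) was lost without untreated replicate 1 or 3 or auxin replicate 1 (0.0527 to 0.112). Zrsr1, Mcts2, Blcap and Inpp5f, all lower, were lost without auxin replicate 2 (0.0564, 0.0966, 0.0563 and 0.0646). Zrsr1 was also lost without any untreated replicate or auxin replicate 3 (0.082 to 0.166), and Mcts2 without untreated replicate 3 (0.107) or auxin replicate 1 (0.0609).

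In MTF2-AID NPC, 12 members were called, 10 higher and 2 lower, where 8.14% of all genes were called (5.03% higher, 3.11% lower). Neuronal markers summed to 1898 to 1944 TPM with auxin, against 2589 to 2684 TPM untreated, and pluripotency markers to 52.6 to 63.9 TPM with auxin, against 26.1 to 32.2 TPM untreated. Neural progenitor markers summed to 1088 to 1192 TPM with auxin, against 1317 to 1434 TPM untreated, and mesoderm and fibroblast markers to 97.2 to 109 TPM with auxin, against 70.5 to 80.6 TPM untreated, and their part in the result was not tested. Peg3 had 237, 229 and 209 TPM with auxin, against 156, 138 and 138 TPM untreated (0.64 ± 0.08, adjusted p = 2.49e-05). Sfmbt2 had 6.13, 6.06 and 6.69 TPM with auxin, against 3.72, 3.82 and 4.07 TPM untreated (0.64 ± 0.11, adjusted p = 0.000832). Phlda2 had 20.5, 20.4 and 17.7 TPM with auxin, against 12.5, 12.5 and 13.7 TPM untreated (0.58 ± 0.13, adjusted p = 0.00722, and 0.101 by voom on recovered reads). The groups did not overlap for these 3 genes, nor for Plagl1, which had 228, 197 and 189 TPM with auxin, against 165, 146 and 140 TPM untreated (0.44 ± 0.08, adjusted p = 0.00177).

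Nnat fell slightly in this line, with 1047, 1028 and 1050 TPM with auxin, against 1249, 1261 and 1241 TPM untreated (-0.26 ± 0.04, adjusted p = 0.000648). Mest rose by 0.31 ± 0.05 (adjusted p = 0.000993). Zim1 had 3.22, 2.37 and 2.25 TPM with auxin, against 1.5, 1.71 and 1.24 TPM untreated (0.64 ± 0.20, adjusted p = 0.0481), a call lost without any 1 of the 6 libraries (adjusted p of 0.0627 to 0.181). The small rises of Cdkn1c, Grb10, Impact and Osbpl5 and the fall of Trappc9 did not hold either. Cdkn1c was lost without untreated replicate 1 (0.0528) or auxin replicate 2 (0.0569), and Osbpl5 without untreated replicate 3 (0.0756) or auxin replicate 2 (0.0816). Grb10 was lost without untreated replicate 2 or 3 or any auxin replicate (0.058 to 0.16), and Impact without untreated replicate 2 or 3 or auxin replicate 2 or 3 (0.052 to 0.0953). Trappc9 was lost without untreated replicate 2 or 3 or auxin replicate 3 (0.0639 to 0.0721). In all, 5 of the 12 calls were kept under every alternative.

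The 3 lines differed from each other when their auxin changes were compared directly. Between SUZ12-AID and MTF2-AID NPC, 34 members differed (43% of all genes), 15 with a higher change in SUZ12-AID (15.7% of all genes) and 19 with a lower one (27.2%). Median-of-ratios scaling shifted the median of all genes by 0.16 in this difference and gave 16 higher and 14 lower. Nnat differed by -2.42 ± 0.07 (adjusted p = 6.99e-17), Kcnk9 by -2.27 ± 0.31 (adjusted p = 3.94e-06) and Phlda2 by 2.11 ± 0.19 (adjusted p = 1.62e-08). Plagl1, lower with auxin in SUZ12-AID and higher in MTF2-AID, differed by -0.73 ± 0.12 (adjusted p = 5.64e-05). Between SUZ12-AID and AID-JARID2 NPC, 29 members differed (31.1% of all genes), 16 of them with a higher change in SUZ12-AID (13.5% of all genes, 17.6% lower). Peg3 differed by 1.83 ± 0.12 (adjusted p = 1.1e-10), Igf2r by 1.11 ± 0.10 (adjusted p = 1.58e-08), Magel2 by 1.83 ± 0.19 (adjusted p = 1.37e-07) and Asb4 by 2.11 ± 0.26 (adjusted p = 2.35e-06). Between MTF2-AID and AID-JARID2 NPC, 12 members differed (9.64% of all genes, 7.82% higher and 1.82% lower), among them Magel2 by 1.17 ± 0.18 (adjusted p = 0.000137) and Peg3 by 0.69 ± 0.11 (adjusted p = 0.000255).

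Called genes are set side by side here by count. SUZ12-AID and AID-JARID2 NPC had 7 members higher in both (Ascl2, Gab1, Mest, Peg10, Phlda2, Sfmbt2 and Slc22a18) and 10 lower in both, which is 17 of 36 (47.2%) and 17 of 22 (77.3%) calls. Over all genes those shares were 37.2% and 84.7%. Of the members, Asb4 and Magel2 went opposite ways. SUZ12-AID and MTF2-AID had 6 higher in both and 2 lower in both, which is 8 of 36 (22.2%) and 8 of 12 (66.7%) calls, against 10.9% and 76.3% over all genes. Plagl1 went opposite ways in these lines. Mest, Phlda2 and Sfmbt2 were called higher in all 3 tagged lines, and Nnat and Trappc9 lower in all 3, while the share over all genes was not counted for 3 lines. In MTF2-AID NPC the Phlda2 call was lost by voom and that of Trappc9 without some single libraries. After subtraction of the untagged change, of these genes only Sfmbt2 stayed called in MTF2-AID NPC.

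Auxin itself was examined in the untagged line. In untagged NPC limma called 0 members and 0% of all genes, while voom on recovered reads called 1 member and 9 were below 0.05 before adjustment of p. Mest had 302, 300 and 307 TPM with auxin there, against 250, 253 and 272 TPM untreated, and was not called (0.23 ± 0.05, adjusted p = 0.394) although the groups did not overlap. Neuronal markers summed to 2338 to 2496 TPM with auxin in untagged NPC, against 2607 to 2841 TPM untreated, and pluripotency markers to 14.3 to 17.3 TPM with auxin, against 17.8 to 20.5 TPM untreated. When the untagged change was subtracted, 32 members were called in SUZ12-AID NPC, 17 higher and 15 lower (43.5% of all genes, 18.8% higher and 24.7% lower), or 19 and 12 with median-of-ratios scaling, which shifted the median of all genes by 0.11. In AID-JARID2 NPC 12 were called, 4 higher and 8 lower (9.04% of all genes, 3.1% higher and 5.94% lower), a split that was 6 and 6 with median-of-ratios scaling. In MTF2-AID NPC 4 were called, all higher (1.4% of all genes, 1.07% higher and 0.328% lower). They were Sfmbt2 (0.76 ± 0.15, adjusted p = 0.0127, and 0.0857 with the compared groups alone), Peg3 (0.62 ± 0.11, adjusted p = 0.00539), Osbpl5 and Cdkn1c. Cdkn1c was lost without untagged untreated replicate 2, untagged auxin replicate 3 or MTF2-AID auxin replicate 1 or 2 (adjusted p of 0.052 to 0.0658). Osbpl5 was lost without untagged untreated replicate 2 or 3, untagged auxin replicate 1 or 3, MTF2-AID untreated replicate 2 or 3 or MTF2-AID auxin replicate 1 or 2 (0.0619 to 0.0829).

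After 12 hours of auxin, SUZ12-AID ESC had 7 members higher and 0 lower of 35 tested, where 6.83% of all genes were called (5.89% higher, 0.94% lower). With median-of-ratios scaling 5 were higher and 1 was lower. Sfmbt2 had 7.85, 6.69 and 6.68 TPM with auxin, against 3.78, 3.84 and 3.88 TPM untreated (0.80 ± 0.11, adjusted p = 0.000168). Plagl1 had 46.6, 41.8 and 38.8 TPM with auxin, against 24.1, 22.5 and 27.1 TPM untreated (0.78 ± 0.10, adjusted p = 0.000146). All auxin libraries lay above all untreated ones for these genes. Peg12 had 17.3, 17 and 16.8 TPM with auxin, against 13.2, 10.5 and 12 TPM untreated (0.51 ± 0.09, adjusted p = 0.00138), and Igf2r rose by 0.31 ± 0.05 (adjusted p = 0.000964). Sfmbt2 and Igf2r thus rose with auxin at both stages of this line, whereas Plagl1 and Peg12 rose in ESC and fell in NPC, and the difference between stages was not tested. Peg12 also averaged 15.2 TPM with auxin in untagged ESC, against 11.7 TPM untreated, though it was not called there. The Plagl1 fall in NPC was lost with median-of-ratios scaling.

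Another 3 calls in SUZ12-AID ESC were less stable. Phlda2 had 48.3, 48.1 and 51.5 TPM with auxin, against 39, 29.9 and 35.3 TPM untreated (0.51 ± 0.11, adjusted p = 0.00663, and 0.0555 without untreated replicate 2). Peg10 had 4.63, 4.8 and 4.36 TPM with auxin, against 3.15, 2.88 and 3.62 TPM untreated (0.46 ± 0.13, adjusted p = 0.0336), a call lost without untreated replicate 1 or 2 or any auxin replicate (adjusted p of 0.0542 to 0.156). Gnas rose by 0.26 ± 0.06 (adjusted p = 0.0109, and 0.0612 without auxin replicate 2). Pluripotency markers summed to 2945 to 3001 TPM with auxin, against 3102 to 3140 TPM untreated, and trophoblast markers to 135 to 144 TPM with auxin, against 113 to 119 TPM untreated, and their part in the result was not tested.

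In MTF2-AID ESC auxin changed 1 member, where 1.09% of all genes were called (0.629% higher, 0.457% lower). Peg12 had 12.5, 14.3 and 14.4 TPM with auxin, against 10.1, 10.8 and 9.84 TPM untreated (0.40 ± 0.09, adjusted p = 0.0219), a call lost without untreated replicate 1 or 3 or auxin replicate 2 or 3 (adjusted p of 0.0811 to 0.113), by voom (0.221) and with the compared groups alone (0.226). Limma called 0 members in AID-JARID2 ESC (0.298% of all genes), where voom also called 0 and 4 had an unadjusted p under 0.05. In untagged ESC it also called 0 (0.212% of all genes), with 3 at an unadjusted p under 0.05 and 0 by voom. Peg12 had 15.9, 14.9 and 14.9 TPM with auxin there, against 11.5, 11.1 and 12.5 TPM untreated, groups that did not overlap. After subtraction of the untagged change, limma called 0 members in any tagged ESC line. For SUZ12-AID (0.192% of all genes) voom called 3 and 11 had an unadjusted p under 0.05, for MTF2-AID (0.00662%) these were 0 and 3, and for AID-JARID2 (0%) 0 and 2.

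Untreated tagged lines already differed from the untagged line at some loci. In ESC, SUZ12-AID had 0 members higher and 7 lower, where 1.65% of all genes were called (0.47% higher, 1.18% lower). MTF2-AID had 2 higher and 6 lower, or 3 and 4 with median-of-ratios scaling, where 15.7% were called (7.32% higher, 8.39% lower). AID-JARID2 had 1 higher and 4 lower, where 6.31% were called (3.09% higher, 3.22% lower). Peg10 was lower in all 3, with 3.15, 2.88 and 3.62 TPM in SUZ12-AID, 2.98, 3.3 and 3.67 TPM in MTF2-AID and 6.14, 4.34 and 4.47 TPM in AID-JARID2, against 8.36, 9.87 and 8.55 TPM in untagged ESC. Its changes were -1.34 ± 0.13 (adjusted p = 3.66e-06), -1.30 ± 0.13 (adjusted p = 2.21e-07) and -0.79 ± 0.13 (adjusted p = 0.000313) in that order of lines. No tagged library reached the untagged ones. Neural progenitor markers summed to 61.3 to 66.5 TPM in SUZ12-AID ESC, 77.1 to 89.8 TPM in MTF2-AID ESC and 37.9 to 46.6 TPM in AID-JARID2 ESC, against 48.2 to 53.3 TPM in untagged ESC. Trophoblast markers summed to 113 to 119, 100 to 104 and 101 to 108 TPM in the same order of lines, against 122 to 130 TPM in untagged ESC, and their part in the result was not tested. Mest went in different directions, with 11.1, 11.8 and 8.54 TPM in SUZ12-AID ESC (-0.91 ± 0.09, adjusted p = 8.31e-06) and 50, 47.6 and 53.3 TPM in MTF2-AID ESC (1.31 ± 0.09, adjusted p = 2.3e-09), against 19, 20.8 and 20.3 TPM in untagged ESC.

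Other differences between untreated ESC lines were smaller. Zrsr1 had 13.3, 13.2 and 10.3 TPM in MTF2-AID, against 21.4, 19.8 and 17.9 TPM in untagged ESC (-0.67 ± 0.09, adjusted p = 1.53e-05), and Gab1 was higher in MTF2-AID by 0.33 ± 0.05 (adjusted p = 2.44e-05). Peg3 had 34.6, 31.3 and 33.7 TPM in AID-JARID2, against 51.1, 48.4 and 46.7 TPM in untagged ESC (-0.55 ± 0.06, adjusted p = 2.89e-06), and Phlda2 (-0.59 ± 0.11, adjusted p = 0.000897) and Sfmbt2 (-0.55 ± 0.11, adjusted p = 0.0031) were lower in AID-JARID2. Zdbf2 was higher there by 0.47 ± 0.11 (adjusted p = 0.009, and 0.0692 without untagged replicate 3). In SUZ12-AID, Impact was lower by 0.34 ± 0.06 (adjusted p = 0.00586, and 0.0555 with the compared groups alone), and in MTF2-AID by 0.25 ± 0.06 (adjusted p = 0.00656, and 0.067 with the compared groups alone). The other calls in these 2 lines each depended on single libraries. In SUZ12-AID, Trappc9 was lost without any 1 of the 6 libraries (0.0859 to 0.179), Peg3 without untagged replicate 1 or 2 or SUZ12-AID replicate 2 (0.0655 to 0.131), Igf2r without any untagged replicate or SUZ12-AID replicate 2 or 3 (0.0886 to 0.148) and Gnas without replicate 1 or 3 of either line (0.0504 to 0.0671). In MTF2-AID, Trappc9 was lost without any 1 of the 6 libraries (0.0504 to 0.16), Sfmbt2 without any untagged replicate or MTF2-AID replicate 1 (0.0566 to 0.184) and Cd81 without any untagged replicate or MTF2-AID replicate 2 or 3 (0.0559 to 0.178).

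In untreated NPC, SUZ12-AID had 4 members higher and 1 lower than the untagged line, where 0.814% of all genes were called (0.668% higher, 0.146% lower). MTF2-AID had 7 higher and 3 lower, where 8.76% were called (6.19% higher, 2.57% lower), and AID-JARID2 had 16 higher and 7 lower, where 23.8% were called (11.8% higher, 12% lower). Neuronal markers summed to 2535 to 2640, 2589 to 2684 and 1450 to 1709 TPM in these 3 lines, against 2607 to 2841 TPM in untagged NPC. Trophoblast markers summed to 26.1 to 34.1 TPM in SUZ12-AID, 8.68 to 12 TPM in MTF2-AID and 28.4 to 39.8 TPM in AID-JARID2, against 13 to 19.9 TPM in untagged NPC. Pluripotency markers summed to 11 to 16.2, 26.1 to 32.2 and 48.5 to 63.1 TPM in the same order of lines, against 17.8 to 20.5 TPM in untagged NPC. Neural progenitor markers summed to 802 to 1011 TPM in AID-JARID2, against 1337 to 1479 TPM in untagged NPC, and the part of these cell types in the result was not tested. Phlda2 had 28.4, 27.3 and 24.3 TPM in SUZ12-AID (1.18 ± 0.13, adjusted p = 1.04e-05) and 50.7, 61.1 and 38.7 TPM in AID-JARID2 (2.06 ± 0.13, adjusted p = 1.57e-10), against 11, 12.1 and 11.2 TPM in untagged NPC. Sfmbt2 had 7.29, 7.63 and 7.02 TPM in SUZ12-AID (0.73 ± 0.11, adjusted p = 0.000647) and 9.53, 11 and 8.97 TPM in AID-JARID2 (1.13 ± 0.11, adjusted p = 6.82e-08), against 4.76, 4.01 and 3.88 TPM in untagged NPC. For both genes every library of these tagged lines exceeded every untagged one without auxin.

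Peg3 had 156, 138 and 138 TPM in MTF2-AID NPC (0.49 ± 0.08, adjusted p = 0.000337) and 219, 254 and 222 TPM in AID-JARID2 NPC (1.17 ± 0.08, adjusted p = 3.77e-10), against 110, 99.1 and 100 TPM in untagged NPC. Untreated AID-JARID2 NPC thus matched neither the untagged nor the SUZ12-AID level, which was 107, 105 and 95.7 TPM. Ascl2 had 3.46, 4.38 and 4.21 TPM in AID-JARID2, against 1.28, 1.29 and 1.16 TPM in untagged NPC (1.37 ± 0.20, adjusted p = 2.64e-05). Mest was lower in SUZ12-AID NPC, with 155, 147 and 153 TPM, against 250, 253 and 272 TPM in untagged NPC (-0.76 ± 0.05, adjusted p = 4.59e-08). Peg10 was higher in MTF2-AID (0.47 ± 0.08, adjusted p = 0.000766) and AID-JARID2 (1.06 ± 0.08, adjusted p = 2.86e-09).

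Several of these calls depended on a single library. Dcn had 2.23, 2.71 and 2.62 TPM in MTF2-AID NPC, against 1.08, 1.07 and 0.558 TPM in untagged NPC (1.13 ± 0.29, adjusted p = 0.0172). It was lost without untagged replicate 3 (0.105) or MTF2-AID replicate 2 (0.0576) or 3 (0.0527). In AID-JARID2 NPC Dcn had 2.36, 6.21 and 2.78 TPM (1.53 ± 0.29, adjusted p = 0.000431). Peg13 had 1.59, 1.66 and 1.75 TPM in MTF2-AID NPC, against 3.15, 2.61 and 3.56 TPM in untagged NPC (-0.73 ± 0.17, adjusted p = 0.0108, and 0.0701 without untagged replicate 3). Casd1 was lower in MTF2-AID by 0.42 ± 0.11 (adjusted p = 0.0155, and 0.0606 to 0.0739 without untagged replicate 1 or 3 or MTF2-AID replicate 3). In SUZ12-AID NPC, Plagl1 (0.44 ± 0.08, adjusted p = 0.00702) was lost without untagged replicate 2 (0.0574) and Zrsr1 (0.42 ± 0.10, adjusted p = 0.0409) without untagged replicate 1 or 2 or SUZ12-AID replicate 1 or 3 (0.107 to 0.279).

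Related gene lists gave the setting of these changes. Over all genes, 47.6% were higher and 28.5% lower in NPC than in ESC, and 23.9% were higher and 33% lower with auxin in SUZ12-AID NPC. Of 9 tested genes of the H19-Igf2 and Dlk1-Meg3 loci, 7 were higher and 1 lower in NPC than in ESC, and with auxin in SUZ12-AID NPC 7 were higher and 0 lower. Among them H19 rose by 2.70 ± 0.06 (adjusted p = 9.9e-19), Igf2 by 2.46 ± 0.09 (adjusted p = 2.88e-15) and Dlk1 by 3.44 ± 0.18 (adjusted p = 1.07e-12). Of 20 genes for imprint maintenance and DNA methylation, 7 were higher and 7 lower with auxin in SUZ12-AID NPC. Dnmt3l, the cofactor of de novo methylation in germ cells, rose by 5.73 ± 0.32 (adjusted p = 6.02e-12) and Dnmt3b, a de novo methyltransferase gene, by 1.50 ± 0.11 (adjusted p = 9.98e-11). Zfp57 was not called there (-0.09 ± 0.11, adjusted p = 0.504), although it was lower in NPC than in ESC by 2.52 ± 0.07 (adjusted p = 2.09e-27) and fell by 0.25 ± 0.03 with auxin in SUZ12-AID ESC (adjusted p = 0.000168). Of 11 PRC2 subunit genes, 5 were higher and 3 lower with auxin in SUZ12-AID NPC, and Phf19, an accessory subunit gene, rose by 2.40 ± 0.18 (adjusted p = 1.93e-10).

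In AID-JARID2 NPC the same lists had 3 higher and 2 lower of 9, 6 higher and 3 lower of 20, and 3 higher and 0 lower of 11. These are 55.6%, 45% and 27.3% called, against 25% of all genes (9.28% higher, 15.7% lower). H19 rose by 1.30 ± 0.06 (adjusted p = 6.23e-13) and Dnmt3b by 1.37 ± 0.10 (adjusted p = 6.74e-10) there, while Dlk1 fell by 0.55 ± 0.16 (adjusted p = 0.0173). In MTF2-AID NPC the lists had 2 higher and 0 lower of 9, 2 higher and 1 lower of 20, and 2 higher and 0 lower of 11. These are 22.2%, 15% and 18.2% called, against 8.14% of all genes (5.03% higher, 3.11% lower). H19 rose by 0.58 ± 0.06 (adjusted p = 3.99e-06) in that line.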

How the data were processed

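Polyadenylated RNA of 47 libraries was measured by strand-specific sequencing, and the deposited values are TPM, 1 value per gene symbol and library, computed by the authors. STAR 2.6.1d and the mm10 build are named in the submitters' processing notes, while a counting tool or an annotation is not given in the sources used here. Low TPM values were whole multiples of a step per gene and library, so whole reads were recovered for 100% of genes above 0, within 0.001 of a whole number, giving 3.24 to 8.71 M reads per library (M, 1000000). Values near 1 TPM therefore come from few reads unless the transcript is long. The long Kcnq1ot1 had 851 reads in untagged untreated NPC at a mean of 1.22 TPM. Intervals and floors cover counting error only. Groups came from the labels. For MTF2-AID and AID-JARID2 NPC the titles give day 0 but the remaining labels give NPC after 5 days, and those remaining labels were used; replicates 1 and 2 of SUZ12-AID NPC with auxin have the numbers 2 and 3 in the names of their table columns. Replicates are called biological in the series' design text; no source says how cultures were separated, so p-values measure the spread between these samples, which may be technical.

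Genes that reached 1 TPM in 2 or more libraries of a fit entered limma 3.58.1 under R 4.3.3 (statmod 1.5.0; lmFit, eBayes with trend and robust, two-sided) on log2(TPM + 0.5). All 8 groups of a stage shared a fit, and all 16 did for NPC against ESC. P-values were adjusted over all genes tested, and adjusted p under 0.05 was called. The effect beyond untagged is the auxin change minus that of the untagged line, which the 3 lines share. Library values are given for the 8 called members of largest change in NPC against ESC and in SUZ12-AID NPC with auxin, for up to 5 in each other comparison of auxin or lines, and for locus partners; related lists give up to 4 called genes. Members and lists were chosen with earlier results of these data known. The settings varied were the pseudocount (0.1 or 1), the filter (none), the scaling (median of ratios), a replicate block, voom on recovered reads, the compared groups alone and leaving out each library. In data simulated with a fixed spread, the test recovered changes set in genes with many reads. Members with few reads were not covered by that simulation. Coordinates are GENCODE M21 on GRCm38, which is mm10; promoters are RefSeq's.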

Additional observations from a re-analysis of the deposited data

Results flagged for a closer look

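The auxin effects of the tagged NPC lines differed from that of the untagged line when the difference itself was tested with limma. In SUZ12-AID NPC 32 members differed, where 43.5% of all genes did. Among these members were Nnat by -2.57, Phlda2 by 2.57, Kcnk9 by -2.56, Calcr by 2.42 and Zim1 by 2.41 on the log2 scale. Calcr passed the filter on low values only through the 2 SUZ12-AID NPC libraries with auxin, so its differences here and below are values that the filter favours and no support for a difference. In AID-JARID2 NPC 12 members differed, where 9.04% of all genes did. Among these members were Kcnk9 by -1.60, Phlda2 by 1.28, Peg13 by -1.13, Magel2 by -1.03 and Ascl2 by 0.92. The Ascl2 call was lost without any 1 of the 12 libraries compared other than replicate 3 of the auxin groups of both lines (adjusted p of 0.0547 to 0.128). In MTF2-AID NPC 4 members differed (1.4% of all genes), Sfmbt2 by 0.76, Peg3 by 0.62, Osbpl5 by 0.52 and Cdkn1c by 0.36.

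The tagged NPC lines also differed from each other in their auxin effects. Between SUZ12-AID and MTF2-AID 34 members differed, where 43% of all genes did. Among these members were Nnat by -2.42, Dcn by 2.36, Kcnk9 by -2.27, Phlda2 by 2.11 and Calcr by 1.95. The Calcr call was lost with a pseudocount of 0.1 (adjusted p = 0.173). Between SUZ12-AID and AID-JARID2 29 members differed, where 31.1% of all genes did. Among these members were Calcr by 3.20, Dcn by 2.61, Zim1 by 2.35, Asb4 by 2.11 and Magel2 by 1.83. Between MTF2-AID and AID-JARID2 12 members differed, where 9.64% of all genes did. Among these members were Kcnk9 by 1.31, Magel2 by 1.17, Asb4 by 0.88, Phlda2 by -0.82 and Osbpl5 by 0.72. The Asb4 call was lost without AID-JARID2 replicate 1 of either group (adjusted p of 0.0637 with auxin and 0.0697 untreated) or MTF2-AID replicate 2 of either group (0.0535 with auxin and 0.074 untreated). Comparisons that name the same line share its libraries. Neuronal marker sums were lower and pluripotency marker sums higher with auxin in all 3 tagged NPC lines, while in untagged NPC the sums of both were lower with auxin, and their part in these differences was not tested.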

How the results depend on the processing

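No called member changed direction under any alternative tried, and the counts of called members in NPC against ESC and in SUZ12-AID and AID-JARID2 NPC with auxin stayed within 1.5 times. Fitted with the compared groups alone, the count of called members was 0 for auxin in MTF2-AID ESC (1 with all groups), 6 for auxin in MTF2-AID NPC (12) and 1 for the MTF2-AID NPC effect beyond untagged (4). For untreated ESC lines against untagged it was 2 in SUZ12-AID (7), 4 in MTF2-AID (8) and 3 in AID-JARID2 (5), with fewer samples behind the spread. Voom on recovered reads called 2 members for auxin in MTF2-AID ESC, neither of them Peg12, 3 (0) for the SUZ12-AID ESC effect beyond untagged, 7 (4) for that of MTF2-AID NPC and 1 (0) for auxin in untagged NPC; the cause was not tested. Leaving out 1 library gave 0 to 1 members for auxin in MTF2-AID ESC, 7 to 10 for auxin in MTF2-AID NPC and 2 to 5 for its effect beyond untagged. For lines against untagged it gave 3 to 5 in SUZ12-AID ESC, 5 to 6 in MTF2-AID ESC, 3 to 5 in SUZ12-AID NPC (5) and 5 to 10 in MTF2-AID NPC (10). With a replicate block, auxin in NPC called 36 members in SUZ12-AID, 15 in MTF2-AID and 23 in AID-JARID2. The block took its numbers from the titles. By column name, replicates 1 and 2 of SUZ12-AID NPC with auxin are 2 and 3, so their blocks may be misaligned. Same-numbered libraries had a median correlation of 0.013 in ESC and 0.08 in NPC in their deviations from group means. For differently numbered ones it was -0.007 and -0.035. Of the libraries, 16 of 24 ESC and 19 of 23 NPC correlated best with their own number. The numbers were not taken as pairs in the main fits, so any spread shared by number stays in them. Depth limits genes with few reads near 1 TPM, such as Kcnk9 and Calcr.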
